A study of Mus musculus with 12 samples.

Results

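The genes described here are those of the tripartite motif (TRIM) family, a large family of ubiquitin ligases, in RAW264.7 cells, a mouse macrophage line. They were taken by name: every gene that the array's own annotation calls Trim followed by a number and, for some, a letter. The array carried 61 such genes, read by 88 of its 55681 probes. Of these genes 45 could be tested, among 23922 genes and other features tested in all. A TRIM protein carries a RING domain, which passes ubiquitin from an E2 enzyme to a substrate, followed by B-box domains and a coiled coil through which the protein pairs with itself. Its C-terminal part, most often a PRY-SPRY domain, usually chooses the substrate. In macrophages many TRIM genes are known as targets of interferon, and several TRIM proteins mark or restrain proteins of viral sensing and of Toll-like receptor signalling.

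The cells had been given either a scrambled control siRNA or an siRNA against lincRNA-Tnfaip3, a long noncoding RNA named after the gene beside it. Each siRNA was left on for 24 h, and culture then went on for 4 h either without LPS or with E. coli LPS at 1 µg/ml, an outer-membrane lipid of such bacteria and the ligand of TLR4. This gave 4 groups of 3 single-colour arrays: control siRNA, control siRNA with LPS, lincRNA siRNA, and lincRNA siRNA with LPS. All groups share the same cell line and had all received an siRNA, so no untreated cells enter any comparison. Whether the 3 arrays of a group stand for separate cultures is not in the labels, so each p-value speaks only to the spread among these arrays, technical or not. No probe name matched the targeted lincRNA (0 probes), so its own level was not checked here.

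Values are log2 signals relative to the 75th percentile of the same array, so 0 marks a bright probe and -5 one close to background. Of 9 macrophage markers 9 were above background on all 12 arrays, and of 22 markers of other cell types 5 were above background on all 12 and 8 on none. The arrays lay on 3 slides, split unevenly: control-siRNA arrays 1 and 2 were on the first, the last pair of lincRNA-siRNA arrays with LPS (2 and 3) on the third, and the other 8 on the second. Control-siRNA arrays 1 and 2 were also the dimmest in coverage, with 27198 and 29452 probes well above background against 32702 to 36391 on the others. The comparison of LPS in control-siRNA cells therefore moves partly with slide. Values from a fit with a slide term (the slide block) are given with each TRIM gene that passed for LPS. They also stand with each gene list whose counts they change, but not with the domain classes, motif shares, siRNA comparisons or interaction. With no other group on slide 1 or on slide 3, that fit rests on control-siRNA array 3 alone for the control siRNA and on array 1 alone for the lincRNA siRNA with LPS.

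Of the 61 genes, 31 were readily measured in these macrophages, being above background on every array of all 4 groups. A further 9 were above background on all 3 arrays of a group only among the LPS groups: Trim30a, Trim30c, Trim30d, Trim38, Trim42, Trim58, Trim60, Trim69 and Trim75. Another 5 (Trim16, Trim17, Trim34a, Trim43b and Trim54) had other patterns, and 16 were above background in no group. Of those 16, Trim12a, Trim29, Trim31, Trim40, Trim50, Trim52, Trim63, Trim66 and Trim72 were above background on 0 of 12 arrays. This set holds the muscle-associated ligase Trim63 (MuRF1) and Trim72, a membrane repair protein of muscle. Trim10 was above background on 7 arrays and Trim71, a developmental regulator of mRNA, on 5, but neither on all 3 arrays of a group. The 2 arrays on the first slide showed 34 and 35 family members above background and the other 10 arrays 40 to 48, so the count of members that reach all 3 arrays only with LPS moves with slide as well as with treatment, and the part of each was not tested.

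**Figure D1:**
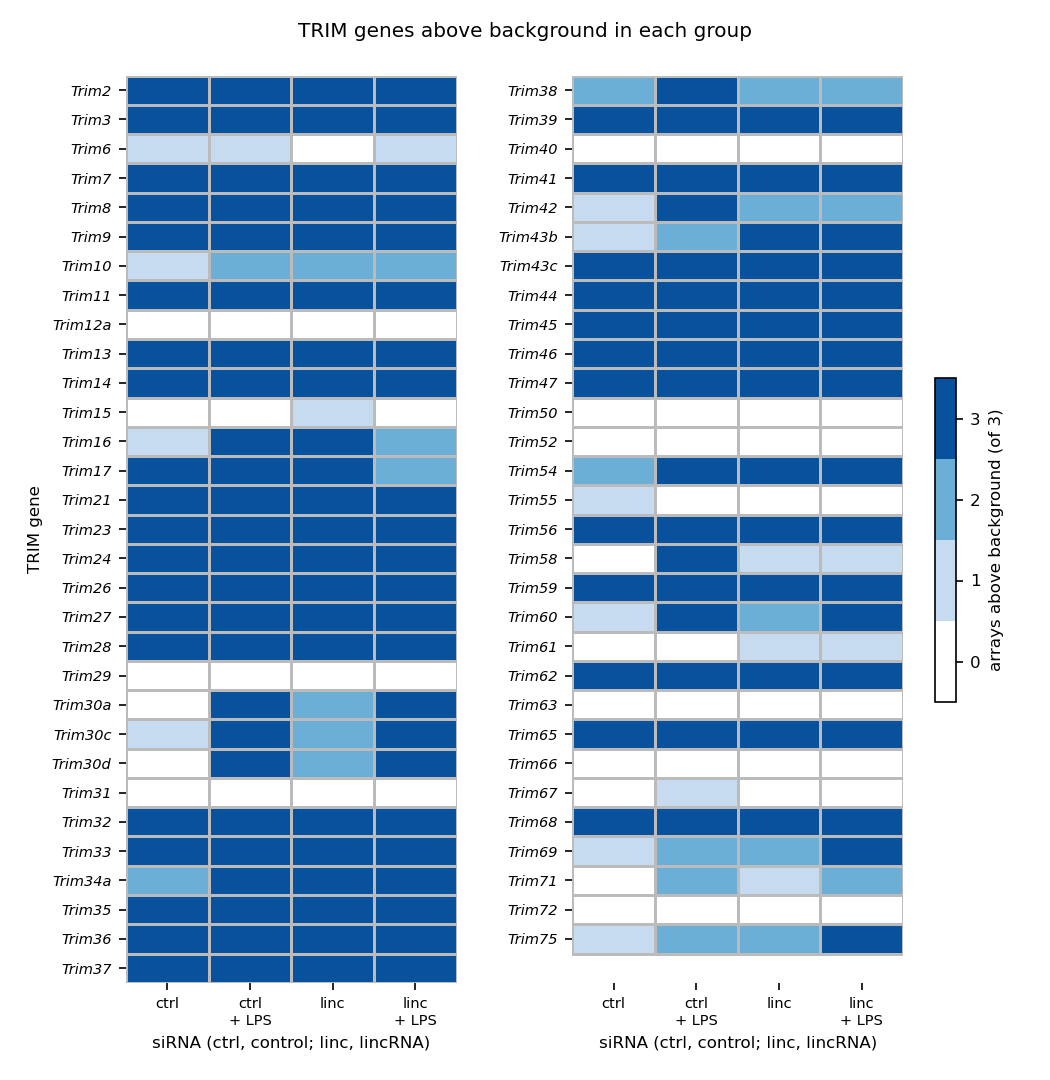
Number of arrays (of 3, colour) in each group on which at least 1 probe of each of the 61 TRIM genes was well above background; rows are genes and columns the 4 groups (ctrl, control siRNA; linc, lincRNA siRNA). A block of 31 genes is dark in every column, and Trim30a, Trim30d and Trim58 were on 0 control-siRNA arrays but on all 3 with LPS under the control siRNA.

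LPS in control-siRNA cells raised 9 of the 45 tested TRIM genes and lowered 1 (limma, Benjamini-Hochberg adjusted p under 0.05 over all 23922 features). Of all features 3.21% passed as higher and 1.88% as lower. The genes that rose were Trim30d, Trim30a, Trim34a, Trim21, Trim60, Trim36, Trim56, Trim26 and Trim13, and the gene that fell was Trim24. The other 35 did not pass, and the median log2 change of the 45 was 0.013 against 0.056 over all features, so the middle of the family lay near 0 while a few members moved far. By the looser count of groups that did not overlap, 13 members were higher on every LPS array than on every control array and 10 lower, against 14.6% and 15.4% of all features. Trim30a, Trim30d and Trim60, among the 9 risers, passed the filter on dim probes only through an LPS group. They could thus enter the test only because their LPS arrays were above background, and these counts depend on that filter. With no such filter fewer members passed, as given below.

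Trim21, the antibody receptor of the cytosol that also ubiquitinates interferon regulatory factors, gave the smallest p of the family. Its signal was -2.07, -1.86 and -1.90 in control-siRNA cells and 1.02, 1.30 and 1.30 after LPS. In lincRNA-siRNA cells it was -2.08, -1.52 and -1.12 without LPS and 1.50, 1.15 and 0.66 with it. Every array with LPS was above every array without it under both siRNAs. The log2 change was 3.15 ± 0.26 (SE, n = 3 and 3, limma adjusted p = 0.00013) in control-siRNA cells, an 8.89-fold rise, and 2.68 ± 0.26 (adjusted p = 0.000538) in lincRNA-siRNA cells. Both held under the slide block, at 3.11 (adjusted p = 0.0112) and 3.07 (adjusted p = 0.0144).

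Trim34a lies with Trim30a, Trim30c and Trim30d in the TRIM gene cluster on chromosome 7, where its probe maps to mm9 positions 111410513 to 111410572. Its signal was -4.59, -5.81 and -5.58 in control-siRNA cells and -1.46, -1.18 and -1.43 with LPS. In lincRNA-siRNA cells it went from -5.13, -4.23 and -3.79 to -1.34, -1.46 and -1.69. The LPS groups were again fully separate from the groups without LPS. This probe was above background on none of the control-siRNA arrays. Each dim array was therefore counted at the higher of its own signal and the lowest signal still well above background. The rise in the mean was then 11.3-fold (fitted log2 change 3.97 ± 0.37, limma adjusted p = 0.000234). This is an estimate and not a lower limit, and the 95% CI of the fitted change began at 3.151. That estimate is for this probe and not for the gene. A second probe, above background on 2 control-siRNA arrays, changed by only 1.45 on the log2 scale, which is below that estimate. In lincRNA-siRNA cells the second probe changed by 1.29, where the first probe rose by 2.89 ± 0.37 (adjusted p = 0.00262). Under the slide block the rise was 4.22 (adjusted p = 0.018) in control-siRNA cells and 3.04 (adjusted p = 0.0774, no longer passing) in lincRNA-siRNA cells. With normexp background correction both calls held at smaller sizes, 1.65 and 1.44, so the fold value above depends on how background is subtracted.

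Trim56 and Trim26 rose less, and evenly. Trim56, a ligase linked to STING and to restriction of RNA viruses, read 2.03, 2.20 and 1.78 in control-siRNA cells and 3.08, 3.11 and 2.81 with LPS, then 1.90, 2.09 and 2.09 against 2.86, 2.93 and 2.92 in lincRNA-siRNA cells. Trim26, which acts on IRF3 and on interferon signalling, read 2.77, 2.90 and 2.77 against 3.77, 3.74 and 3.73, and 2.82, 3.00 and 3.05 against 3.80, 3.72 and 3.54. Neither gene had an array with LPS inside the range of the arrays without it. The log2 change of Trim56 was 1.00 ± 0.13 (limma adjusted p = 0.00192) under the control siRNA and 0.88 ± 0.13 (adjusted p = 0.00686) under the lincRNA siRNA. That of Trim26 was 0.94 ± 0.10 (adjusted p = 0.000667) and 0.73 ± 0.10 (adjusted p = 0.00498). Both held in control-siRNA cells under the slide block (adjusted p = 0.0182 and 0.0241), and in lincRNA-siRNA cells the block left their sizes at 0.83 and 0.84 but not their calls (adjusted p = 0.102 and 0.055).

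**Figure D2:**
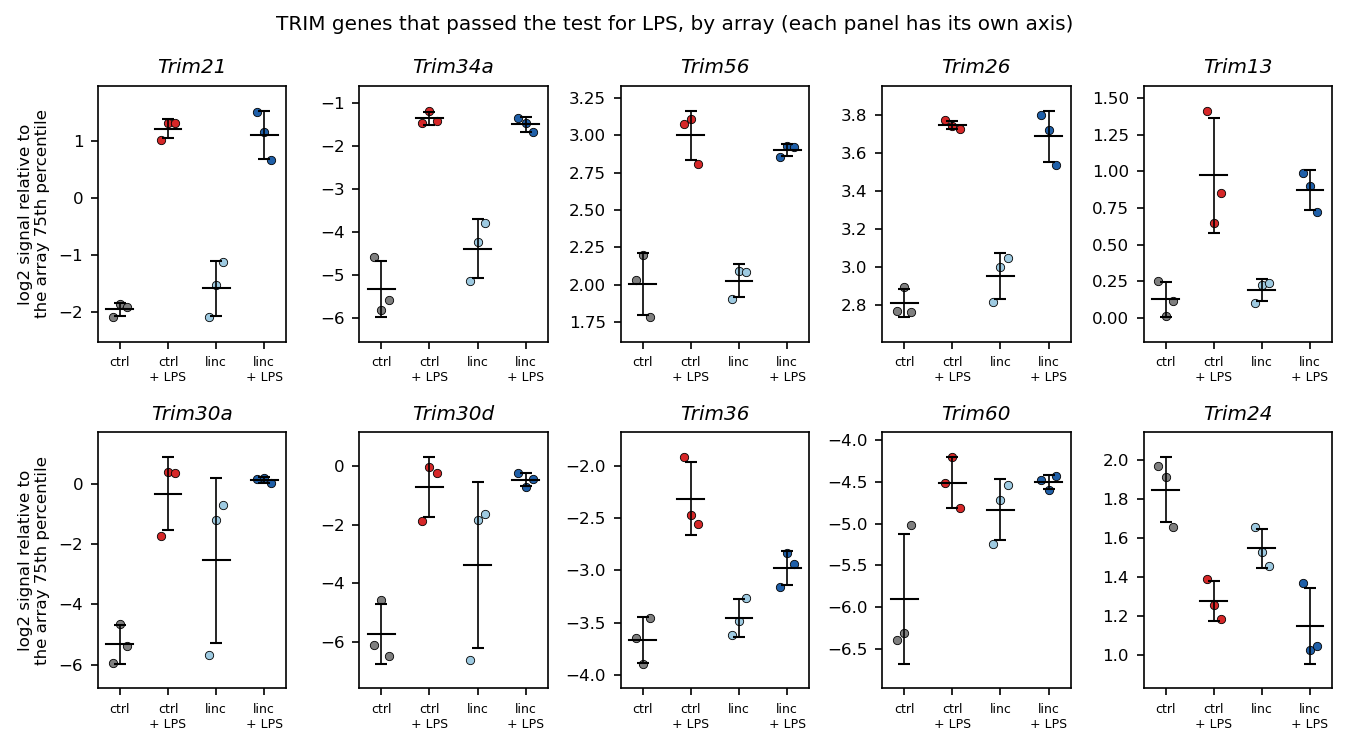
Log2 signal relative to the array's 75th percentile (vertical axis, a separate scale per gene) on each array of the 4 groups, for the 10 TRIM genes that passed for LPS; points are arrays 1 to 3 from left to right, the wide line is the mean and the bar is 1 SD (n = 3). Trim21 and Trim34a separate fully by LPS under both siRNAs, while array 1 of the lincRNA siRNA without LPS sits near -5.68 for Trim30a and -6.63 for Trim30d, far below arrays 2 and 3.

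Trim30a and Trim30d, neighbours in the same cluster, showed the widest swings of the family. Mouse Trim30a is known as an LPS-inducible brake on Toll-like receptor signalling through TAB2 and TAB3, and Trim30d is a close relative of it. Trim30a (probe at chromosome 7, mm9 111557578 to 111557637) read -5.94, -4.65 and -5.37 in control-siRNA cells, on none of which it was above background, and -1.74, 0.38 and 0.36 with LPS. Trim30d (111620805 to 111620864) read -6.12, -4.59 and -6.50, also never above background, and -1.89, -0.02 and -0.23 with LPS. Within control-siRNA cells the LPS arrays were above the arrays without it for both genes. With the dim control arrays counted as for Trim34a, the mean of Trim30a was 22.0-fold higher (fitted log2 change 4.99 ± 1.13, limma adjusted p = 0.0351). That of Trim30d was 19.6-fold higher (5.02 ± 1.18, adjusted p = 0.0395). On the log2 scale these differences of means were 4.46 and 4.295. They are estimates and not lower limits: the 95% CI of the fitted change began at 2.455 for Trim30a and 2.393 for Trim30d. Neither call held under the slide block, although the sizes did (5.03, adjusted p = 0.454, and 5.79, adjusted p = 0.356). With normexp background correction both calls held, but the changes were 2.38 and 2.01 on the log2 scale. The fold values above thus depend on how background is subtracted. Over 21 alternatives each call held in 11, and both were lost without control-siRNA array 1 or 2, without control-siRNA LPS array 2 or 3, and without any single array of the lincRNA siRNA with LPS. Trim30c, the next gene of the cluster, changed by 1.41 ± 0.58 and did not pass (adjusted p = 0.179). How far the probes of these close relatives detect each other's transcripts was not tested.

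The other members that rose were smaller or dimmer. Trim13, a ligase of the endoplasmic reticulum membrane, read 0.25, 0.01 and 0.12 and then 1.41, 0.65 and 0.85 with LPS, a change of 0.85 ± 0.18 (limma adjusted p = 0.0256). Its second probe changed by 0.73. Trim36, a microtubule-associated ligase, read -3.64, -3.89 and -3.46 and then -1.92, -2.46 and -2.56, a change of 1.35 ± 0.19 (adjusted p = 0.00302). Trim60, about which little is known, read -6.40, -6.31 and -5.01 and then -4.51, -4.21 and -4.81, a change of 1.40 ± 0.34 (adjusted p = 0.0483), with only 1 control-siRNA array above background. None of these 3 calls held under the slide block, where the changes were 0.86 (adjusted p = 0.361), 1.14 (adjusted p = 0.142) and 0.50 (adjusted p = 0.803). The Trim60 call held in 3 of 21 alternatives, and its change was 0.17 (adjusted p = 0.502) with normexp background correction, under which Trim36 passed at 0.52. Control-siRNA array 3 was the highest of its group for Trim60 and for Trim36.

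Trim24, a chromatin reader with a PHD finger and a bromodomain that restrains retinoic acid receptor signalling, was the member that fell. It read 1.97, 1.91 and 1.66 in control-siRNA cells and 1.39, 1.25 and 1.18 with LPS, so the groups did not overlap. The log2 change was -0.57 ± 0.13 (limma adjusted p = 0.0352), and -0.38 under the slide block (adjusted p = 0.441). A second Trim24 probe changed by -0.55. The other PHD and bromodomain members did not pass. Trim33, a regulator of SMAD4 and of the Ifnb1 locus, changed by -0.48 ± 0.19 (adjusted p = 0.166) and Trim28, the KRAB corepressor KAP1, by -0.14 ± 0.18 (adjusted p = 0.658). The lowest changes of the family also included Trim23 at -0.58 ± 0.19 (adjusted p = 0.112), Trim47 at -0.44 ± 0.22 (adjusted p = 0.247) and Trim43c at -0.38 ± 0.10 (adjusted p = 0.0687). Trim65, which ubiquitinates the RNA sensor MDA5, passed as lower under the slide block (-0.81, adjusted p = 0.045) and under median scaling, but not otherwise here (-0.35, adjusted p = 0.246), and its second probe changed by 0.92.

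Several of the bright-probe members did not pass for LPS under either siRNA. Trim14, an adaptor at MAVS that stabilises cGAS, came nearest, with 1.50, 1.64 and 1.35 in control-siRNA cells and 2.28, 2.50 and 2.19 with LPS. Its groups did not overlap, and the change was 0.83 ± 0.22 (limma adjusted p = 0.0622), with 0.77 (adjusted p = 0.17) under the lincRNA siRNA. Trim27, which acts on NOD2 and on NF-kB signalling, lay between 5.00 and 5.54 on all 12 arrays and changed by -0.04 ± 0.14. Trim41 lay between 4.73 and 5.16 (-0.03 ± 0.12) and Trim44, an atypical member that lacks the RING domain, between 4.36 and 4.80 (-0.05 ± 0.14). Trim32, a ligase of STING, changed by -0.16 ± 0.20 and Trim8 by -0.32 ± 0.11 (adjusted p = 0.12). Trim35, Trim37 and Trim59 were lower on every LPS array than on every array without it under both siRNAs, by -0.29 to -0.39, and none of them passed.

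Of the members that reached all 3 arrays only in an LPS group, several were dim and scattered, and most were also above background on some arrays without LPS. Trim38, a brake on TLR and TNF signalling through TAB2, ranged from -6.35 to -3.76 in control-siRNA cells and from -4.81 to -3.69 with LPS, a change of 0.30 ± 0.89 (limma adjusted p = 0.864). Trim42 changed by 0.23 ± 0.68, Trim69, a centrosomal ligase that restricts vesicular stomatitis virus, by 0.59 ± 0.58 and Trim75 by 0.52 ± 0.36 (adjusted p = 0.86, 0.552 and 0.397). Trim69 and Trim75 reached 3 arrays only with LPS under the lincRNA siRNA. Their changes there were 0.59 ± 0.58 and 0.455 ± 0.36 (limma adjusted p = 0.84 and 0.789). For Trim38, Trim42, Trim69 and Trim75 the groups with and without LPS overlapped under both siRNAs. A detection count of 3 arrays against fewer thus did not come with a separate level. The 5 members with other detection patterns, apart from Trim34a, were Trim16 (0.23 ± 0.36), Trim17 (0.01 ± 0.35), Trim43b (0.88 ± 0.80) and Trim54 (0.95 ± 0.51), and none passed.

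Scaling each array by its median instead of its 75th percentile moved the median change of all features in control-siRNA cells from 0.056 to -0.215, and the share of calls that were higher from 63.1% to 32.5%. Of the TRIM genes 7 then passed as higher (1.96% of all features) and 4 as lower (4.06% of all features), the latter being Trim24, Trim43c, Trim59 and Trim65. The direction of the 10 genes named above as passing was the same under both scalings.

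Ordered by C-terminal domain, the PRY-SPRY class held most tested members and most calls. Of 26 tested PRY-SPRY members 6 rose with LPS in control-siRNA cells and 0 fell, with changes from -0.44 to 5.02 and a median of 0.41. In the whole family 9 of 45 rose, a share near that of the class, and 3.21% of all features passed as higher. Trim30a, Trim30d and Trim60, among the 6, were tested only because an LPS group passed the filter on dim probes. Of the 3 members with COS and FN3 domains, which bind microtubules, Trim36 rose, while Trim9 (1.04 ± 0.39, adjusted p = 0.152) and Trim46 (0.89 ± 0.27, adjusted p = 0.095) did not pass. The 3 NHL-repeat members, Trim2, Trim3 and Trim32, changed by -0.19 to 0.005 and none passed. Of the 2 members with a transmembrane segment Trim13 rose, and Trim59 changed by -0.31 ± 0.11 (adjusted p = 0.148). No test between classes was made.

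Of the 9 risers, 5 carry the core of an interferon-stimulated response element, GAAANNGAA on either strand, in the RefSeq window from 250 bases before to 50 bases after a transcription start. Trim26 alone of the 5 lies outside chromosome 7. The stretches are shown with the core in capitals, written 5′ to 3′ along the gene (GRCm38.p6). A core on the opposite strand appears as its reverse complement. The stretches are Trim21 at chr7:102565448-102565477 (minus strand), Trim26 at chr17:36836979-36837008 (plus strand), Trim30a at chr7:104465210-104465239 (minus strand), Trim30d at chr7:104507871-104507900 (minus strand) and Trim34a at chr7:104244457-104244486 (plus strand).
Trim21: tctgagagGAAACTGAAAGTGAAatttgga
Trim26: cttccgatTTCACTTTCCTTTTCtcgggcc
Trim30a: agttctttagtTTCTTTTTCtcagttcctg
Trim30d: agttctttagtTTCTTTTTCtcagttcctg
Trim34a: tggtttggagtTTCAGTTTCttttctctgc

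Trim21 and Trim26 each hold 2 overlapping cores, from base 14 to base 28 counted from the start in Trim21 and from -159 to -145 in Trim26. Trim34a has its core from 12 to 20. Trim30a and Trim30d have theirs from -35 to -27 and from -40 to -32, in stretches of identical letters. A second annotated Trim30a start, further along the gene, has the same core from 4 to 12. The 250 bases before the start are shown for Trim26, and for Trim30a and Trim30d because these last share an unbroken run of 118 bases.
Trim26, chr17:36836896-36837145, plus strand: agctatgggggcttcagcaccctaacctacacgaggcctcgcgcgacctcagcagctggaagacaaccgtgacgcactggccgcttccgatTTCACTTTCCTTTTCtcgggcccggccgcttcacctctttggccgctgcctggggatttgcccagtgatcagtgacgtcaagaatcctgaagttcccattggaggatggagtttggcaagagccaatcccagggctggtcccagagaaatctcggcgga
Trim30a, chr7:104465194-104465443, minus strand: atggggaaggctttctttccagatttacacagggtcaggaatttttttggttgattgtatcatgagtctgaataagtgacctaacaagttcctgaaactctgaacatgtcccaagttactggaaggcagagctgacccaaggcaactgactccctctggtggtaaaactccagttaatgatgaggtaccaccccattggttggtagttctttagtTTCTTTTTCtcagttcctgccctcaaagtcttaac
Trim30d, chr7:104507850-104508099, minus strand: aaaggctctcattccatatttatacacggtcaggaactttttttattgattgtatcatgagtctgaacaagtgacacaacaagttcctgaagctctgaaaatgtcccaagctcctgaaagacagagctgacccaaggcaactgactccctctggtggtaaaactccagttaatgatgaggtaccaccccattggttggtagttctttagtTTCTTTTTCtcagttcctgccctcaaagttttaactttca

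Of the 9 risers 8 had a window in the table, and 5 of the 8 held the core (62.5%), against 7 of the 33 tested members with a window (21.2%) and 2638 of 27025 genes in the whole table (9.76%). The 33 include the 8, so these are not separate sets of genes. Trim30a and Trim30d, which share the run of 118 bases, are each counted among the 5. Trim56, Trim13 and Trim60 held none in these windows. A GAS core, TTCNNNGAA, which reads the same on both strands, was in 0 of the 8 risers, 4 of the 33 tested members and 9.55% of all genes. An NF-kB core, GGGANNTTC on either strand, was in Trim26 alone of the 8, in 2 of the 33 and in 4.47% of all genes. A match is a string of letters in a window, not a bound site, and the set of risers was itself chosen by these arrays. Trim30a, Trim30d and Trim60 among them were tested only because an LPS group passed the filter on dim probes.

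LPS in lincRNA-siRNA cells raised 4 of the 45 members (1.5% of all features passed as higher) and lowered 0 (0.326% of all features passed as lower). The 4 were Trim21, Trim34a, Trim56 and Trim26, each of which had also risen in control-siRNA cells. The median change of the 45 was 0.012 against -0.007 over all features. By groups that did not overlap, 11 members were higher and 7 lower, against 8.17% and 7.18% of all features. Trim30d (2.91 ± 1.18, limma adjusted p = 0.424) and Trim30a (2.66 ± 1.13, adjusted p = 0.458) had fitted changes close to those of Trim34a and Trim21 but did not pass. Trim58, a ligase of red cell maturation, had a fitted change of 1.09 ± 1.16 (adjusted p = 0.852). In control-siRNA cells its change was 1.93 ± 1.16 (adjusted p = 0.324), which did not pass either. With the dim control arrays counted as for Trim34a, that change was 1.53-fold, which is likewise an estimate and no lower limit. Under the lincRNA siRNA Trim58 was above background on 1 array of each group. The lowest changes were -0.53 ± 0.22 for Trim47, -0.48 ± 0.17 for Trim65, -0.42 ± 0.19 for Trim23, -0.40 ± 0.13 for Trim24 and -0.39 ± 0.11 for Trim59, none of which passed (adjusted p = 0.433, 0.34, 0.489, 0.265 and 0.18).

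**Figure D3:**
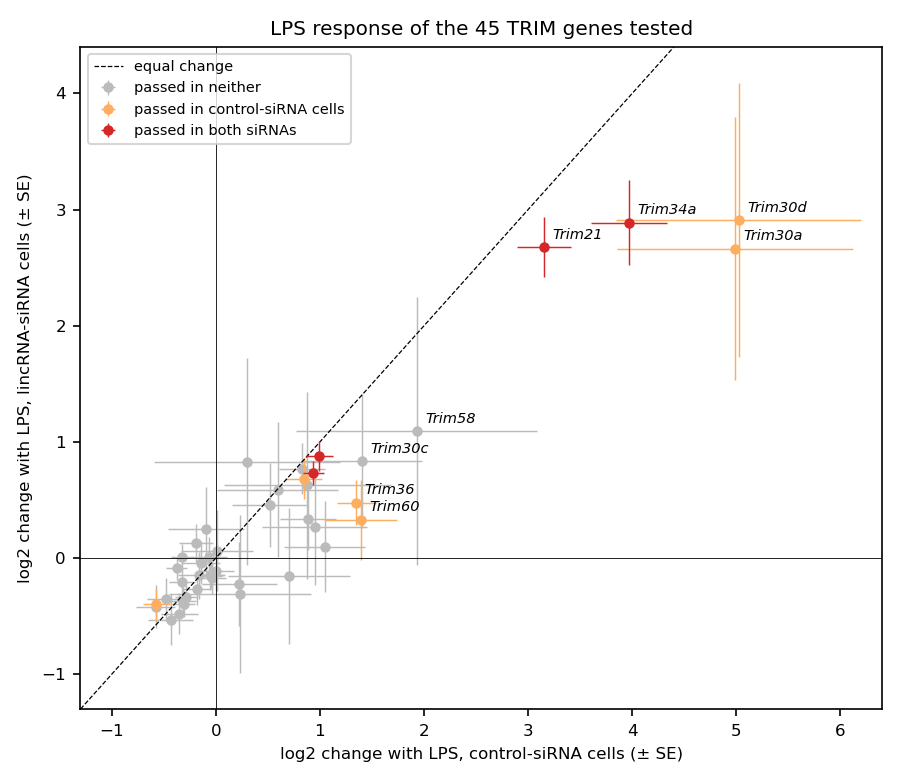
Log2 change with LPS of the 45 tested TRIM genes in control-siRNA cells (horizontal axis) and in lincRNA-siRNA cells (vertical axis), each with its SE; colours mark the genes that passed in both, in control-siRNA cells, or in neither, and the dashed line marks equal change. Trim21 (3.15 and 2.68) and Trim34a (3.97 and 2.89) lie far from the cloud with short bars, and Trim30a and Trim30d lie far from it with long ones.

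The difference between the 2 LPS responses was tested as the interaction of siRNA and LPS, and 0 of the 45 members passed (0% of all features). At an unadjusted p under 0.05 there was 1 member and 887 features. That member was Trim36, whose LPS change was 1.35 ± 0.19 in control-siRNA cells and 0.48 ± 0.19 in lincRNA-siRNA cells, a difference of -0.87 ± 0.27 (95% CI -1.47 to -0.27, unadjusted p = 0.00899, limma adjusted p = 0.895). Trim8, a ligase of TAK1, had 0.33 ± 0.15 (CI -0.01 to 0.68) and Trim60 -1.07 ± 0.49 (CI -2.16 to 0.02), both at adjusted p = 0.895. The half-width of the 95% interval was 0.60 for the median member and 3.72 for the widest. These intervals are not adjusted for the number of features. A difference had to exceed its half-width by more to pass, and that of Trim36, whose interval excludes 0, did not. For Trim34a the difference was -1.08 (CI -2.23 to 0.07) and for Trim21 -0.48 (CI -1.29 to 0.34).

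The lincRNA siRNA against the control siRNA gave 0 of 45 members with LPS and 0 of 45 without it by limma (0% of all features in each). At an unadjusted p under 0.05 there was 1 member with LPS and 7 without it, beside 1126 and 4381 features. With LPS the smallest p belonged to Trim36, which read -3.16, -2.83 and -2.94 under the lincRNA siRNA against -1.92, -2.46 and -2.56 under the control siRNA. Its groups did not overlap, nor did those of Trim8, Trim37, Trim43b, Trim43c, Trim62 and Trim69, and the share of all features was not counted. The Trim36 difference was -0.66 ± 0.19 (limma, unadjusted p = 0.00594, adjusted p = 0.922). Trim37, a peroxisomal and centrosomal ligase, differed by -0.22 ± 0.12, and Trim2, a neuronal NHL-repeat ligase, by -0.29 ± 0.17 (adjusted p = 0.975 for each). Trim21 differed by -0.11 (95% CI -0.68 to 0.47), Trim26 by -0.06 (CI -0.29 to 0.17) and Trim56 by -0.10 (CI -0.39 to 0.19).

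Without LPS the smallest p values belonged to Trim43c, Trim46 and Trim60. Trim43c read -0.51, -0.55 and -0.76 under the lincRNA siRNA against -0.22, -0.05 and -0.33, a difference of -0.41 ± 0.10 (unadjusted p = 0.00268, limma adjusted p = 0.203). Trim46, a microtubule organiser of the axon, read -1.02, -0.32 and -0.45 against -1.63, -1.79 and -1.12, a difference of 0.92 ± 0.27 (adjusted p = 0.212). Trim60 differed by 1.07 ± 0.34 (adjusted p = 0.222). Trim43c and Trim46 did not overlap between the siRNAs, and neither did Trim9, Trim24, Trim62 and Trim68. The share of all features that did not overlap was not counted. All 3 arrays of the lincRNA siRNA without LPS were on the second slide and 2 of the 3 control-siRNA arrays were not. Leaving out control-siRNA array 3, which shared that slide, made Trim43c, Trim46 and Trim60 pass, together with 2544 features. The siRNA and the slide cannot then be told apart.

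**Figure D4:**
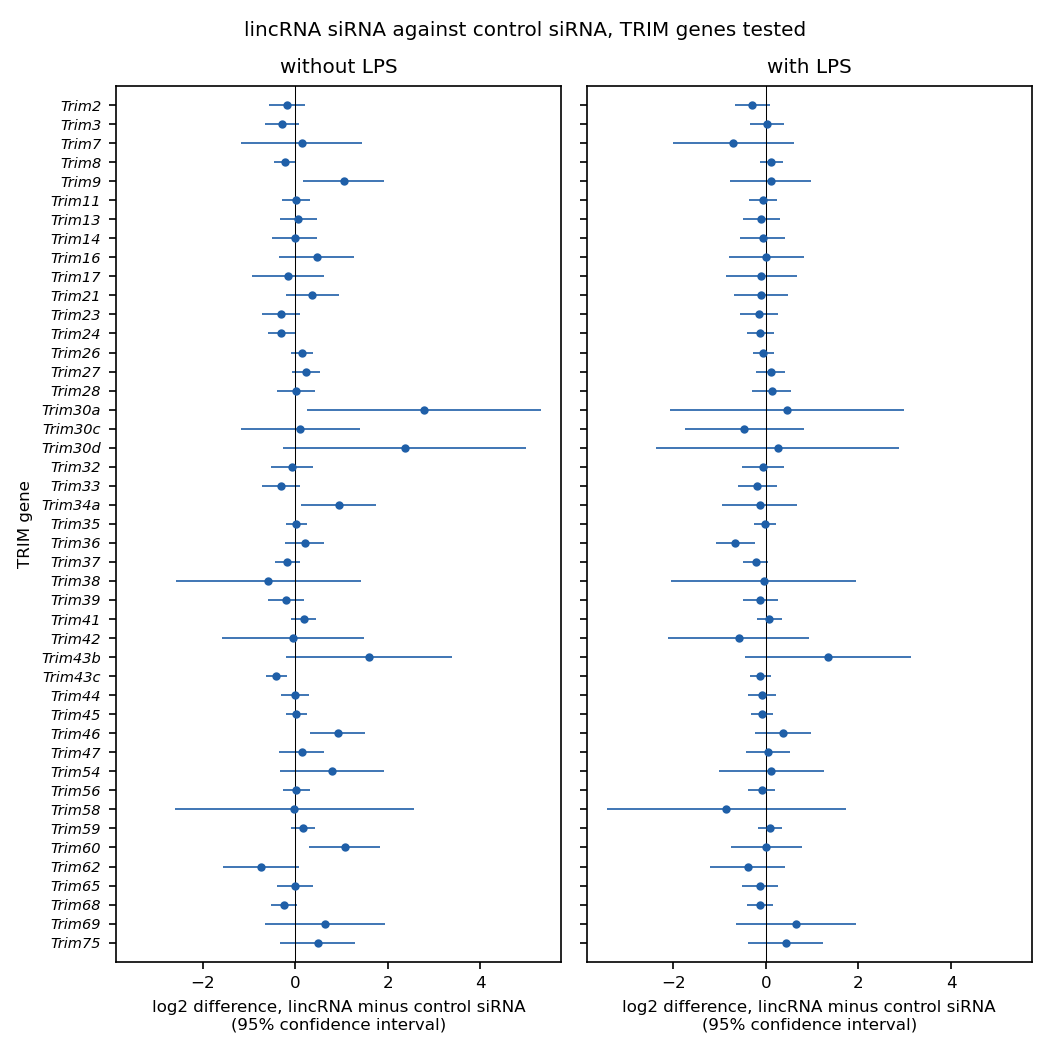
Log2 difference between the lincRNA siRNA and the control siRNA for each of the 45 tested TRIM genes, without LPS (left) and with LPS (right), with 95% confidence intervals. No member passed in either panel, and the widest intervals, with a half-width of up to 2.63, belong to the members whose arrays disagree most, Trim30a and Trim30d among them.

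The arrays of the lincRNA siRNA without LPS did not read alike for Trim30a and Trim30d, while Trim30c read -4.72, -4.92 and -4.76 on them. Trim30a was -5.68 on array 1, where it was not above background, and -1.21 and -0.71 on arrays 2 and 3. Trim30d was -6.63 on array 1 and -1.83 and -1.64 on arrays 2 and 3. On array 1 both lay within the control-siRNA range or below it, and on arrays 2 and 3 both were above every control-siRNA array. Over the group the differences from the control siRNA were 2.78 ± 1.13 (limma adjusted p = 0.25) and 2.37 ± 1.18 (adjusted p = 0.303), and neither passed. With the dim control arrays counted as for Trim34a, the mean differences were 4.78-fold and 3.12-fold. These are estimates and no lower limits, and array 1 did not show the difference. Without array 1 the log2 differences were 4.36 ± 0.62 (adjusted p = 0.0227) and 4.00 ± 0.64 (adjusted p = 0.0374), and both passed. Array 1 was singled out here after its low values for these genes were seen. Leaving it out raises the mean and narrows the spread by that choice, so these passes are no test of an siRNA effect. The LPS response of lincRNA-siRNA cells without that array was 1.09 for Trim30a and 1.28 for Trim30d (adjusted p = 0.854 and 0.779).

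Genes of interferon signalling split across the same arrays. On arrays 1, 2 and 3 of the lincRNA siRNA without LPS, Usp18, which removes ISG15 and blunts the interferon receptor, read -0.51, 2.94 and 3.20. Isg15, the ubiquitin-like modifier, read 2.49, 4.88 and 5.07, and Irf7, the amplifier of interferon transcription, -0.89, 2.36 and 2.39. Control-siRNA arrays gave -0.30, 0.38 and -0.27 for Usp18, 2.57, 3.12 and 2.79 for Isg15 and -0.77, -0.26 and -0.60 for Irf7. On array 1 Usp18, Isg15 and Irf7 were thus just outside the control-siRNA range, and on arrays 2 and 3 they were above it. Not every interferon signalling gene read so. On array 1 Irf1 was 0.36 against 0.91, 1.02 and 0.88 in control-siRNA cells, and Stat2 was 0.67 against 1.28, 1.28 and 1.15. Array 1 was thus itself low for these, while Irf8 (3.42 against 3.43, 3.27 and 3.41) lay within the range. Of the 13 genes of an interferon signalling list, 7 were lower on array 1 than on both other arrays by at least 1 log2 unit, against 3 of the 45 TRIM genes (Trim30a, Trim30d and Trim62) and 575 of all 23922 features. Trim62 read otherwise: -4.40 on array 1, below the control-siRNA arrays (-2.81, -2.85 and -2.42), and -2.92 and -2.98 on arrays 2 and 3. Array 1 was the lowest of the 3 for 30 of the 45 TRIM genes and for 8702 of all features. These counts were chosen after the values were seen. All 3 arrays of the lincRNA siRNA without LPS lay on the second slide. The part of interferon signalling in the Trim30a and Trim30d values was not tested.

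**Figure D5:**
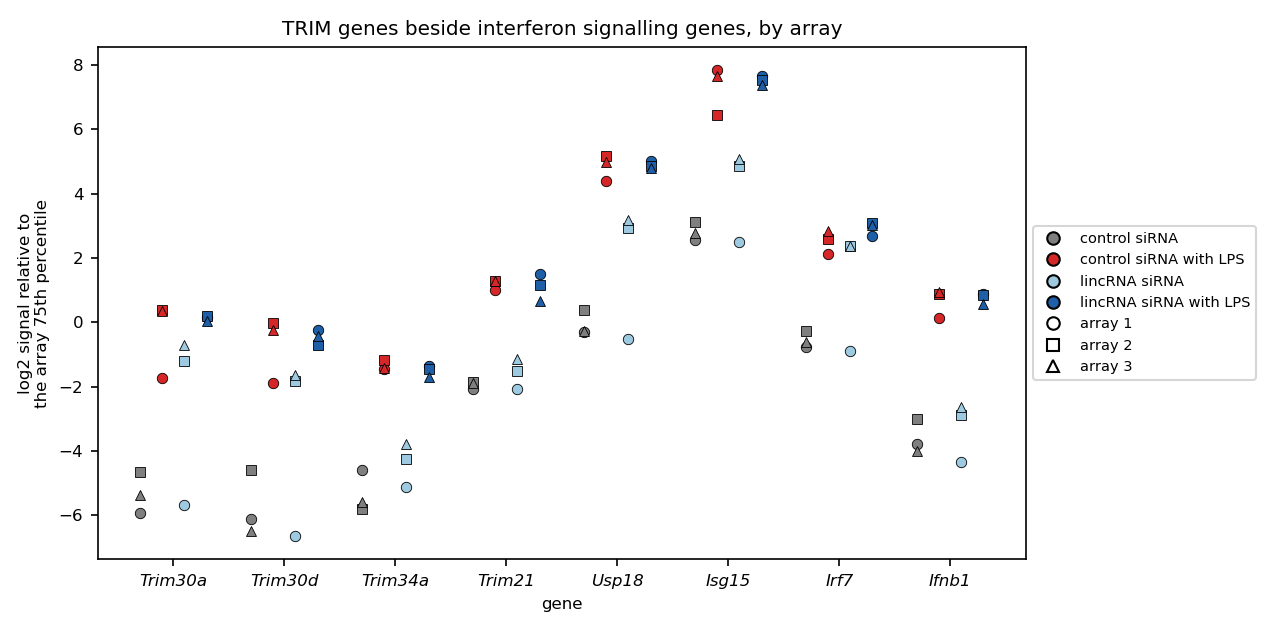
Log2 signal relative to the array's 75th percentile on each array for Trim30a, Trim30d, Trim34a and Trim21 and for the interferon signalling genes Usp18, Isg15, Irf7 and Ifnb1; colour is the group and symbol the array number. For Trim30a, Trim30d, Usp18, Isg15 and Irf7 the lincRNA siRNA without LPS splits, with array 1 beside the control-siRNA arrays and arrays 2 and 3 above them.

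The other genes around the TRIM pathway were read from lists. Of 13 interferon signalling genes 9 rose with LPS in control-siRNA cells and 0 fell, with a median change of 2.23, and 6 rose in lincRNA-siRNA cells. Of all features 3.21% passed as higher in control-siRNA cells and 1.5% in lincRNA-siRNA cells. Ifnb1, the interferon that macrophages release after LPS, rose by 4.24 ± 0.44 (limma adjusted p = 0.000455) under the control siRNA, against 4.03 under the lincRNA siRNA (adjusted p = 0.00104). Under the slide block 3 of the 13 passed in each, namely Ifnb1, Irf1 and Socs1. In that fit 193 of all 23922 features passed as higher under the control siRNA and 142 under the lincRNA siRNA. Of 24 sensing and signalling proteins on which TRIM ligases act, 8 rose and 0 fell in control-siRNA cells. They were Ifih1 (MDA5, 5.23 ± 0.52), Zbp1 (3.79), Ddx58 (RIG-I, 3.39), Irf7 (3.07), Nod2 (2.06), Nlrp3 (1.85), Ikbke (1.12) and Cgas (0.78). Irf7 was also 1 of the 9 interferon signalling genes that rose. In lincRNA-siRNA cells 4 of the 24 rose: Ifih1, Nod2, Nlrp3 and Ikbke. Among the listed genes that did not pass in control-siRNA cells were the adaptor Mavs (-0.10), the kinase Tbk1 (-0.19), the ligase Traf6 (-0.22) and the transcription factor Irf3 (0.05). Under the slide block, added after the data were seen, 3 of the 24 passed as higher in control-siRNA cells (Ifih1, Nod2 and Nlrp3) and 2 in lincRNA-siRNA cells (Nod2 and Nlrp3).

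Of 16 genes for ubiquitin itself, the E1 enzyme Uba1 and E2 enzymes, 0 passed in either direction by limma under the control siRNA (1 at an unadjusted p under 0.05) and 0 under the lincRNA siRNA (0 at an unadjusted p under 0.05), with median changes of -0.06 and 0.003. Ubb changed by 0.06 ± 0.13 and Ube2d2a by -0.04 ± 0.10. Of all features 3.21% passed as higher under the control siRNA and 1.5% under the lincRNA siRNA. TRIM proteins that go by other names gave 5 tested of 9 listed, and 1 rose. It was Pml, the scaffold of nuclear bodies and also TRIM19, which read 0.78, 0.95 and 1.09 in control-siRNA cells and 2.59, 3.13 and 3.23 with LPS. All LPS arrays were above all others, and the rise was 2.05 ± 0.30 (limma adjusted p = 0.00387), with 1.41 (adjusted p = 0.049) in lincRNA-siRNA cells. Neither Pml call held under the slide block (1.89, adjusted p = 0.18, and 1.47, adjusted p = 0.465).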

How the data were processed

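Spot intensity values were deposited by the authors as output of Agilent Feature Extraction, which the headers give as version 10.7.1.1, the signal being corrected for background and spatial trend inside an array, with probe positions on mm9. The authors' deposited value table, on a log2 scale by comparison with the scanner signals, was used only as an alternative. No source used here states how it was normalized. Spots of a probe were averaged, flagged outliers left out, and log2 of the processed signal was set relative to each array's 75th percentile. A probe entered if some group had it well above background on each of its 3 arrays, and each gene was represented by its brightest kept probe. A single model over all 12 arrays and 4 groups (8 residual degrees of freedom) was fitted with limma 3.58.1 in R 4.3.3 (data.table, version 1.17.8), with Benjamini-Hochberg adjustment over 23922 features and a threshold of 0.05. The fit was tested on simulated data.

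Members, lists, C-terminal classes and motifs were chosen with earlier results of these data known. Named members are those that passed, the 5 highest and 5 lowest LPS changes, the 3 smallest p-values of each other contrast, and those above background on all 3 arrays only in an LPS group. Others are named after their values were seen, to complete a domain class or where an alternative changes a call. A further gene of the naming pattern and a gene of the interferon list are not reported here. Gene symbols were used as the array gives them for members. Promoter windows are from RefSeq (GRCm38.p6) and matched 46 of 61 members by symbol. Exons and UTRs at the probes were not analysed here. With 3 arrays per group, the number of arrays limits the precision of every value.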

Additional observations from a re-analysis of the deposited data

How the results depend on the processing

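The count of members that passed for LPS in control-siRNA cells was 10, and it was 8 to 11 under normexp background correction, quantile normalization, array median scaling, a filter for probes above background on all arrays, the mean of a gene's kept probes and the authors' value table. It was 5 with no filter on dim probes, 5 with the slide as a block and 0 within slide 2, where the control siRNA has 1 array, assumed to vary like the others. In lincRNA-siRNA cells the count was 4, and 2 with array median scaling, 1 with the slide block and 0 within slide 2. Leaving out 1 array at a time gave 5 to 15 members in control-siRNA cells, 4 to 5 in lincRNA-siRNA cells and 0 to 3 for the lincRNA siRNA without LPS. The 15 came without control-siRNA array 3, and each control-siRNA array 1 or 2, or LPS array 3, left out gave 5, and LPS array 2 left out gave 6. For the lincRNA siRNA without LPS, leaving out lincRNA-siRNA array 1 gave 2 members. With the replicate block 9 members passed in control-siRNA cells and 4 in lincRNA-siRNA cells. Of 18 same-numbered pairs of arrays across groups, 8 had deviations correlated over 0.1 (-0.3 to 0.469 in all), so the numbers were not taken as a pairing. No change of a member named as passing turned its sign under these alternatives, and Trim21, Trim26 and Trim56 passed in control-siRNA cells under 21 of 22 of them, all but the comparison within slide 2. Over all features the 1218 calls in control-siRNA cells became 719 with no filter, 231 with the slide block, 48 within slide 2 and 3932 without control-siRNA array 3 (514 to 3932 over single arrays left out), and the 437 in lincRNA-siRNA cells became 157 and 46 with the slide block and within slide 2. For the lincRNA siRNA with LPS and for the interaction, 0 members passed under every alternative run. The cause of these shifts was not tested.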

Other observations

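A gene that later annotation names Trim12c, a neighbour of Trim30a and Trim34a in the chromosome 7 cluster, was on the array under an older clone name and so is outside the members. It read -2.48, -1.89 and -2.03 in control-siRNA cells and -0.20, -0.45 and -0.21 with LPS, a rise of 1.85 ± 0.44 (limma adjusted p = 0.0418) that did not pass under the slide block (1.75, adjusted p = 0.531). In lincRNA-siRNA cells it read -3.03, -1.02 and -1.21 without LPS and -0.85, -0.46 and -0.70 with it, a change of 1.09 (adjusted p = 0.424). Its array 1 of the lincRNA siRNA without LPS was again the lowest of the group. This gene was chosen after its values were seen.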
